A study of Mus musculus with 15 samples.

Results

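The 6 genes described here encode proteins that are secreted by the visceral endoderm of the early embryo and, later, by the liver: Afp (alpha-fetoprotein), Ttr (transthyretin), Apoa1 (apolipoprotein A-I), Fgb and Fga (the beta and alpha chains of fibrinogen) and Alb (albumin, named Alb1 in the files). They were taken by gene name from 27902 genes named on the expression and promoter arrays, and every probe carrying one of the names was used. Each gene had 1 expression probe. On the promoter arrays 23 probes carried one of these names, 6 for Afp, 5 each for Ttr, Fga and Alb and 2 for Fgb, while Apoa1 had 0. RNA and methylated DNA were compared between TKO, a mouse embryonic stem (ES) cell line in which the 3 DNA methyltransferase genes Dnmt1, Dnmt3a and Dnmt3b are all disrupted, and J1, a wild-type mouse ES cell line. Both lines were grown with serum and LIF and without feeder cells for 2 passages. DNA pulled down from both lines with an antibody against methylated cytosine (MeDIP) was hybridised together on promoter arrays. The labels give TKO as Cy5 and J1 as Cy3. The promoters were divided over 2 array designs, called part 1 and part 2, with 7 arrays each from different passages. RNA of both lines from the same cultures was hybridised together on 3 expression arrays, with the dyes swapped on replicate 2. Each array gave 1 ratio of TKO over J1, by the labels, and counted as 1 replicate. The 3 expression arrays were deposited as 1 sample, and no label says whether they came from separate RNA, so their SD and p-values may cover only the spread between hybridisations. Only 1 line of each genotype was measured, so the p-values say nothing of other pairs of lines, and the number of arrays limits the precision.

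The visceral endoderm is the outer layer of cells that feeds the embryo before the placenta works. Its cells take up maternal proteins and put out carriers of fatty acids, hormones, retinol and lipid, and the same carriers are later made by hepatocytes. Afp and Alb are neighbouring members of the albumin family, with Afp on in the fetal tissues and shut down after birth while Alb stays on in adult liver. Ttr carries thyroid hormone and the retinol-binding protein, Apoa1 is the main protein of high-density lipoprotein, and the fibrinogen chains form the clot. Undifferentiated ES cells make little of any of them, and the transcription factors HNF4, FOXA and GATA are known to drive them in endoderm.

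The promoters tiled on part 1 are shown because methylated CG dinucleotides are what MeDIP detects there. The windows come from RefSeq (GRCm38.p6) and run from 250 bases before to 50 after the start on the gene's own strand, with each CG dinucleotide, the site of DNA methylation, in capitals. Fgb lies at chr3:83049814-83050113 (minus strand), Afp at chr5:90490464-90490763 (plus strand), Alb at chr5:90460620-90460919 (plus strand) and Fga at chr3:83025903-83026202 (plus strand).
Fgb: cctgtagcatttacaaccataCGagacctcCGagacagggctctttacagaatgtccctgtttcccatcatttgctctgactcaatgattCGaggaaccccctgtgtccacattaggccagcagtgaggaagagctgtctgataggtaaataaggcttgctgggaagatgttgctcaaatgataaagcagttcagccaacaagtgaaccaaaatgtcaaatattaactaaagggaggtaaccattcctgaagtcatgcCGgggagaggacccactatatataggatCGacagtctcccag
Afp: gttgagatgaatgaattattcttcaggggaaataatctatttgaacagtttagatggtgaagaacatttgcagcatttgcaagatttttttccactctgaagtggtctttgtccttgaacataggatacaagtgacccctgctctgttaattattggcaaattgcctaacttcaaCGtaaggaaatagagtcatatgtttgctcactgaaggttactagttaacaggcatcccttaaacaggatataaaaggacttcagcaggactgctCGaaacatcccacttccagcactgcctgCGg
Alb: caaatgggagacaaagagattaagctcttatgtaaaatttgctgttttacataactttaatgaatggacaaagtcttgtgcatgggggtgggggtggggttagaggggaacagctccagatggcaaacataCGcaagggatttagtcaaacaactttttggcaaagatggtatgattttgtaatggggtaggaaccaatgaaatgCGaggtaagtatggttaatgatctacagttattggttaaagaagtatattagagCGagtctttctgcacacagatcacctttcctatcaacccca
Fga: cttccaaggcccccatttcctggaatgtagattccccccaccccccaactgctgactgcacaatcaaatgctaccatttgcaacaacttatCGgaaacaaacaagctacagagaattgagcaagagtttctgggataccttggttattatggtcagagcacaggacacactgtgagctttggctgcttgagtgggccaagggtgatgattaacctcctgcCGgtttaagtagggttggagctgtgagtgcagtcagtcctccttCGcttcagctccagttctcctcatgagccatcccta
The windows of Afp, Alb and Fga hold 3 CG dinucleotides each and that of Fgb holds 5, against a median of 7 over 32851 RefSeq windows of the same length. The window of Apoa1 holds 4. In Fgb the CGs start at bases -229, -220, -160, 9 and 37 from the start, in Afp at -75, 20 and 48, in Alb at -119, -45 and 10, and in Fga at -159, -30 and 15. The letters TATAAA, searched on both strands, were found in the Afp window, at -7, where they overlap no CG, and in 13.6% of all windows. The starts of Afp and Alb lie 29.8 kb apart and those of Fgb and Fga 23.7 kb apart.

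RNA of the 3 deleted methyltransferases was lower in TKO on the expression arrays, which is the direction the labels give. The order of the dyes is only likely, since the labels name both dyes for each line. The log2(TKO/J1) was -2.51 ± 0.19 for Dnmt3b (SD, n = 3), -2.36 ± 0.18 for Dnmt3a (n = 2) and -1.07 ± 0.25 for Dnmt1 (n = 2). Where these probes lie relative to the disrupted exons is not stated in any label. Well above background were 38.6% to 66.8% of the expression probes and 88.2% to 99.7% of the promoter probes, and 8386 spots of expression replicate 3 were marked as uneven and left out of the fit. The ES cell genes Pou5f1, Sox2 and Nanog were well above background in both lines on every array kept.

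The secreted-protein genes fell into those with much more RNA in TKO, those whose RNA was measured in TKO but not in J1, and those measured in neither line. Afp had processed signals of 11573, 10872 and 8011 in TKO on replicates 1 to 3, against 185, 192 and 251 in J1. All TKO values stood far above all J1 values, and the J1 signal was well above background on replicates 1 and 2. Replicate 3 was an uneven spot, so the fit used the other two arrays, whose fitted log2(TKO/J1) was 4.04 and 3.68. Afp thus had a mean log2 ratio of 3.86 ± 0.25 (SD, n = 2), a 14.5-fold difference (limma adjusted p = 1.94e-07), and with the uneven spot kept it was 3.66. It ranked 1 from the highest among the 13279 genes tested.

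Fgb, the beta chain of fibrinogen, had signals of 3186, 2606 and 3273 in TKO and 310, 142 and 336 in J1. The lines did not overlap, and the probe was well above background in both lines on all 3 arrays. Its replicate 3 was again an uneven spot. The log2 ratio was 2.07 ± 0.08 (SD, n = 2; 4.19-fold; limma adjusted p = 1.65e-06), the rank 29.

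Apoa1 had signals of 852, 591 and 812 in TKO, all well above background, and of 104, 50.3 and 129 in J1, none of them well above background. Its log2 ratio was 0.92 ± 0.13 (SD, n = 3; limma adjusted p = 3.38e-05). The J1 level is only an upper limit, so J1 was set to its own value or that of the dimmest probe measured on each array, whichever was higher. By that estimate the RNA was 1.87-fold higher in TKO. This is no firm lower bound, because a probe below background can lie above the dimmest one measured. Ttr had signals of 121, 175 and 467 in TKO, all well above background, against 52.7, 57.4 and 143 in J1, none of them above. Within each array TKO was higher, but the J1 value of replicate 3 exceeded the TKO value of replicate 1. The Ttr log2 ratio was 0.31 ± 0.16 (SD, n = 3, limma adjusted p = 0.0215), and by the same estimate the RNA was 1.20-fold higher in TKO. The Ttr call was lost without replicate 3 (0.22, adjusted p = 0.129), without replicate 2 (0.36, adjusted p = 0.0511), with a dye term (0.29, adjusted p = 0.0539) and where arrays were centred on the median, not by loess (0.31, adjusted p = 0.373).

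Fga and Alb were not well above background in either line on any array. Fga had signals of 92.5, 63.2 and 68.4 in TKO and 56.8, 61.9 and 81.6 in J1. Alb had signals of 60.3, 57.6 and 56.3 in TKO and 55.3, 65.3 and 64.4 in J1. The lines overlapped for both genes and no ratio was tested, so a difference was not measurable at this brightness. RNA of Fgb was thus measured in TKO on the arrays that gave nothing for its partner chain Fga, and RNA of Afp where its neighbour Alb gave nothing.

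**Figure D1:**
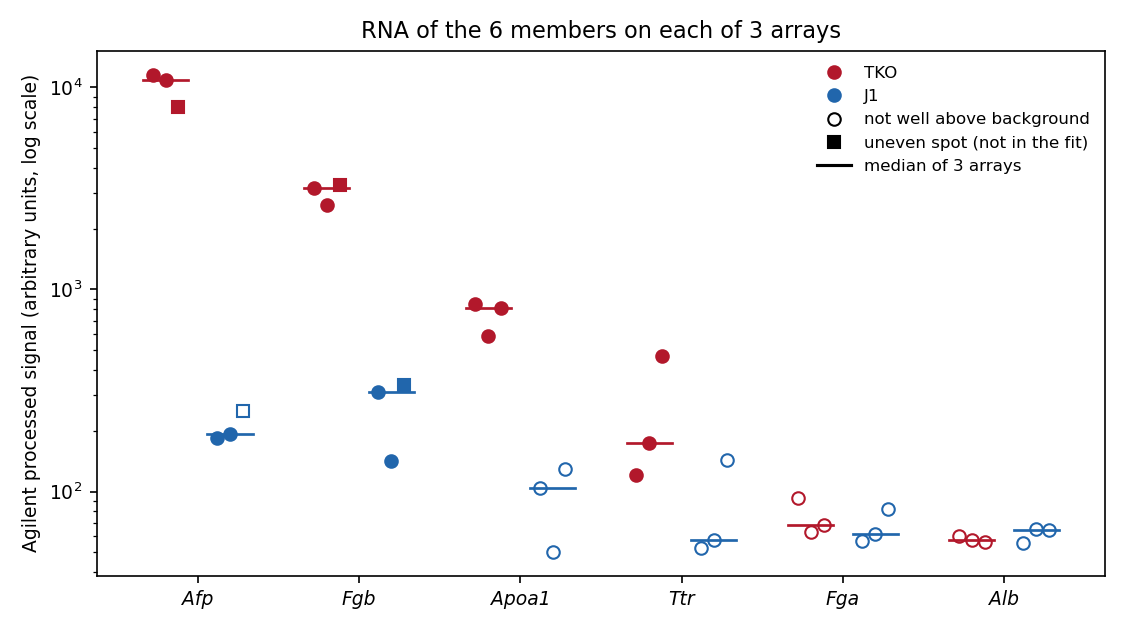
Processed signal (arbitrary units, log axis) of each member on each of 3 expression arrays, TKO left of J1; filled symbols were well above background, open ones were not, squares are uneven spots and bars are medians. Afp, with 8011 to 11573 in TKO against 185 to 251 in J1, is farthest apart, and Fga and Alb lie at background in both lines.

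Of the 6 members, 4 were tested and all 4 were higher in TKO, where 16.9% of all genes tested were called higher and 17.0% lower. Of these, 2, Afp and Fgb, were also at least 2-fold higher, as 1.69% of all genes tested were. The members and the gene lists below were chosen with earlier results of these data known. Their counts and ranks are therefore no test against these shares. Apoa1 and Ttr entered the test through TKO alone, so their direction was fixed by the filter. Between the genes measured in both lines the per-array ratios did not overlap, with Afp at 3.68 to 4.04 and Fgb at 2.01 to 2.12. Those of Apoa1, 0.80 to 1.05, and Ttr, 0.22 to 0.49, were taken against J1 values below background and have no place in that order. The sizes depend on the background correction, which adds 50 units to each channel and draws the ratio of dim probes towards 0. From Agilent's processed signals the log2 ratio was 5.89 for Afp (59.5-fold) and 3.78 for Fgb (13.8-fold), both past an adjusted p of 0.05. In the authors' deposited table the log10 ratio, whose sign matches TKO over J1, was 1.68 for Afp, 1.09 for Fgb, 0.928 for Apoa1, 0.456 for Ttr, 0.0416 for Fga and -0.0389 for Alb. In whole cultures like these, more cells of a type and more RNA per cell cannot be told apart.

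The genes nearest to each member in their RNA ratios over the arrays were found by the root mean square difference of log2(TKO/J1). For Afp, over 2 arrays, these were Rhox2a (0.578), Cubn (0.753) and Krt8 (0.810), so no gene lay close to it. For Fgb, over 2 arrays, they were Asz1 (0.0101), Xlr (0.0322) and Sct (0.0548). For Apoa1, over 3 arrays, they were Abhd2 (0.0387), Arhgdib (0.0444) and Clip1 (0.0501), and for Ttr Nedd9 (0.0228), Agbl3 (0.0268) and Derl2 (0.0277).

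Of 13 genes beside the members on their chromosomes 7 were tested. By limma 0 had an adjusted p under 0.05, where 16.9% of all genes tested were called higher and 17.0% lower. An unadjusted p under 0.05 was found for 1, Plrg1. In the albumin cluster Afm and Gc, both made by liver, had no probe above background on all arrays in either line. Fgg, the gamma chain of fibrinogen, had a log2 ratio of 0.00 ± 0.07 (SD, n = 3; limma adjusted p = 0.987) with median signals of 360 in TKO and 403 in J1. Among the 3 fibrinogen chains Fgb thus rose, Fgg did not pass the test and Fga gave no measurable RNA; the difference between Fgb and Fgg was not tested. Plrg1, a splicing factor next to Fgb, was at -0.23 ± 0.12 (adjusted p = 0.0653), and Lrat and Dchs2 were not tested. Beside Apoa1, Apoa4 was at 0.13 ± 0.15 (n = 2; adjusted p = 0.385), and Sidt2, Zpr1, Pafah1b2 and Sik3 lay between 0.04 and 0.16 with no adjusted p under 0.05. Apoc3 and Apoa5 were not tested. A second, dimmer Apoa4 probe was above background in TKO on 2 of 3 arrays and in J1 on 0, with median signals of 237 in TKO and 72.0 in J1.

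Other proteins secreted by visceral endoderm and liver were followed as a list of 49 genes, of which 18 were tested. Of these 12 were higher in TKO, 2 lower and 4 did not pass, with a median log2 ratio of 0.41 beside -0.01 over all genes tested. Of all genes tested 16.9% were called higher and 17.0% lower. Where arrays were centred on the median, not by loess, 6 were higher. The summed signal of the list went the other way on all 3 arrays, with 248954 to 357752 in TKO and 289050 to 389042 in J1. Apob, among the 12, was above background in TKO alone, so its direction was fixed by the filter. Apoc2, a cofactor of lipoprotein lipase, was highest at 2.02 ± 0.41 (SD, n = 3; limma adjusted p = 2.74e-06), followed by Apom at 1.61 ± 0.28, the retinol carrier Rbp4 at 1.60 ± 0.22 and Apoa2, a partner of Apoa1 in high-density lipoprotein, at 1.05 ± 0.07. The 2 lower genes were Apoe at -0.44 and Igfbp2 at -0.79, which were named after their values were seen. Of the 48 list genes with a probe, 12 in TKO and 19 in J1 were above background on no array, among them Hp, Apoh and Vtn in both lines.

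The uptake and lipoprotein assembly machinery of visceral endoderm had 5 of 8 genes tested, and all 5 were higher in TKO with a median log2 ratio of 1.83. Over all genes tested 16.9% were called higher and 17.0% lower. Cubn, the receptor cubilin, was at 3.18 ± 0.21 (n = 2; limma adjusted p = 2.18e-07), the endocytic adaptor Dab2 at 2.38 ± 0.27 (n = 3), the chloride channel protein Clic6 at 1.83 ± 0.01 (n = 2; 0.68 with uneven spots kept) and Amn, the partner of cubilin, at 1.82 ± 0.17 (n = 3). Lrp2, Slc2a2 and Soat2 were not tested. Among 19 transcription factors of endoderm and liver 12 were tested, 6 were higher, 2 lower and 4 did not pass, with a median of 0.29. Nr2f2, among the 6, and Foxa3, among the 4, were above background in TKO alone, so their direction was fixed by the filter. Onecut1, also among the 4, passed the filter through TKO, with J1 above background on 1 of 2 arrays, and was at -0.02. Foxa2 was at 1.77 ± 0.10 (n = 2; adjusted p = 3.94e-06), Gata6 at 1.56 ± 0.10 (n = 3), Sox17 at 1.38 ± 0.18 (n = 2) and Cebpb at 0.92 ± 0.15 (n = 3). Hnf4a and Gata4 were not tested, and Zhx2, a repressor of Afp in adult mouse liver, was above background in TKO on no array.

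Most tested markers of visceral endoderm, trophoblast and parietal endoderm were also higher in TKO, and their part in the results was not tested. Visceral endoderm markers had 7 of 10 tested and all 7 were higher in TKO, where 16.9% of all genes tested were called higher. Their summed signal was 41363 to 66607 in TKO and 6612 to 13366 in J1, and 0 of 10 were at background on all arrays of either line. That list shares Cubn, Dab2 and Amn with the uptake list, Foxa2, Gata6 and Sox17 with the transcription factors and Rbp4 with the secreted proteins. Of 12 trophoblast markers 6 were tested and 5 of these were higher, led by Krt8 at 2.88, Krt18 at 2.34, Gata3 at 2.01 and Plet1 at 1.56. Cdx2, Eomes, Elf5, Hand1, Ascl2 and Tpbpa were not tested. The summed signal of the list was 351206 to 584947 in TKO and 83863 to 118528 in J1. Cdx2, Elf5 and Tpbpa were above background in J1 on no array. Parietal endoderm markers had 8 of 9 tested higher and Nid1 lower at -0.60, led by Col4a1 at 1.66, Lama1 at 1.32, Col4a2, and Thbd at 1.07. Thbd passed the filter through TKO, with J1 above background on 2 of 3 arrays. With probes required above background in both lines 7 parietal endoderm markers were higher. The summed signal of the parietal endoderm list was 125247 to 171930 in TKO and 91228 to 144187 in J1, with TKO higher on each of the 3 arrays.

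Enzymes that mark mature hepatocytes did not move together. Of 15 genes 3 were tested: Pck1 was higher at 0.38 ± 0.16, Fah lower at -0.45 ± 0.12 and Ass1 did not pass at -0.12 (limma adjusted p = 0.335; n = 3 each). Their summed signal was 13448 to 21842 in TKO and 15232 to 22929 in J1. Cyp7a1, Arg1, Otc and Gys2 were among those above background on no array of either line. Of the 10 ES cell markers measured, 2 were higher, with Klf4 at 0.97 ± 0.17 and Nanog at 0.67 ± 0.02. Lower were 4, Nr0b1 at -1.56 ± 0.22, Sox2 at -0.82 ± 0.13, Pou5f1 at -0.72 ± 0.14 and Esrrb at -0.45 ± 0.06. Beside both lists, 16.9% of all genes tested were called higher and 17.0% lower.

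**Figure D2:**
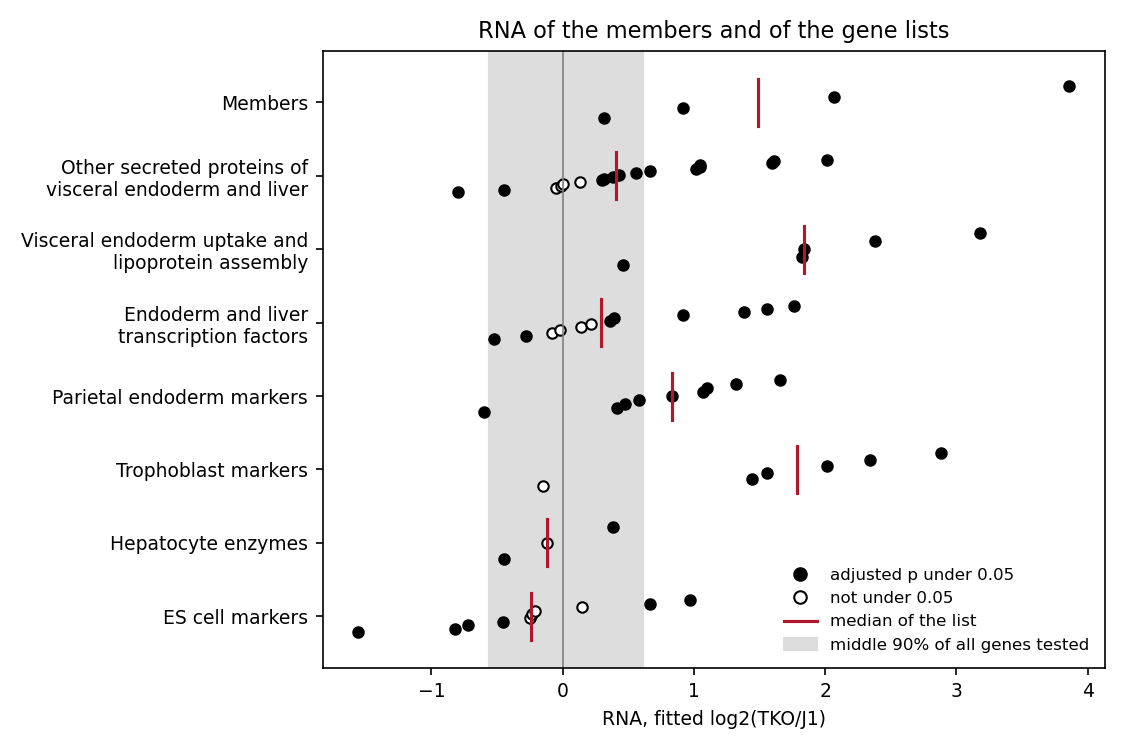
Fitted log2(TKO/J1) of RNA for each gene tested, by list; filled points had an adjusted p under 0.05, red bars are list medians and the grey band holds the middle 90% of all genes tested, from -0.56 to 0.62. Afp at 3.86 and Cubn at 3.18 lie farthest to the right, and the hepatocyte enzymes lie within the band.

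For the MeDIP arrays the ratio is given as log2 of the channel labelled TKO over the channel labelled J1. Dyes were not swapped, so dye and line cannot be told apart, and neither side is read here as the methylated line. As a check on the labels, the promoters of the germ cell genes Asz1 and Sycp3, known to be methylated in wild-type ES cells, lay on the labelled TKO side, at 0.65 ± 0.19 and 0.34 ± 0.11 (SD, n = 7), as did Dppa3 at 0.72 ± 0.15. With the labels as given, promoters methylated in J1 would lie on the labelled J1 side. The check thus came out opposite to the labels, and the reason was not tested.

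The 5 tiled member promoters all lay on the labelled TKO side, and the ratio was above 0 on all 7 arrays for each. The Fgb promoter region held its 2 own probes and 4 shared in name with Plrg1. Its ratio was 0.331, 0.853, 0.654, 0.580, 0.552, 0.733 and 0.495 on arrays 1 to 7, with a mean of 0.60 ± 0.17 (SD, n = 7, limma adjusted p = 1.84e-05). The 2 own probes of Fgb alone gave a mean of 0.86. The Afp promoter, with 6 probes, had 0.465, 0.969, 0.799, 0.374, 0.458, 0.531 and 0.428 and a mean of 0.57 ± 0.22 (adjusted p = 7.51e-05). Both were highest on array 2, and their ranges over arrays overlapped. The Ttr promoter, with 5 probes on part 2, had 0.370, 0.532, 0.371, 0.502, 0.595, 0.358 and 0.335 and a mean of 0.44 ± 0.10 (adjusted p = 1.59e-05). The Alb promoter, with 5 probes, ranged over arrays from 0.102 to 0.414 around a mean of 0.25 ± 0.12 (adjusted p = 0.000546). The Fga promoter, also with 5 probes, ranged from 0.0613 to 0.175 around 0.14 ± 0.04 (adjusted p = 0.00124). Fga was nearest to 0 with these processed signals, although with single values not above background left out Alb was at 0.13 and Fga at 0.14. Every array of Ttr stood above every array of Fga, while Alb overlapped both.

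All 5 passed the adjusted p of 0.05 on the labelled TKO side, where 31.8% of the 14338 promoters tested passed, with 25.4% on the labelled J1 side. With a size of at least 0.5 also asked for, Fgb and Afp were called, 2 of 5, against 2.66% of all promoters tested. The calls rest on the background correction: with normexp and median centring the ratio was 0.19 at Fgb (adjusted p = 0.000746), 0.13 at Afp (adjusted p = 0.0199), 0.24 at Ttr, 0.19 at Fga and 0.00 at Alb (adjusted p = 0.947). Loess after normexp gave 0.26 at Fgb, 0.20 at Afp, 0.30 at Ttr, 0.15 at Fga and 0.07 at Alb. None of the 5 was called in either, and Ttr then stood highest and Alb lowest. Leaving out any 1 of the 7 arrays, an alternative chosen after seeing the data, kept Fgb between 0.56 and 0.64 and Afp between 0.51 and 0.61.

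**Figure D3:**
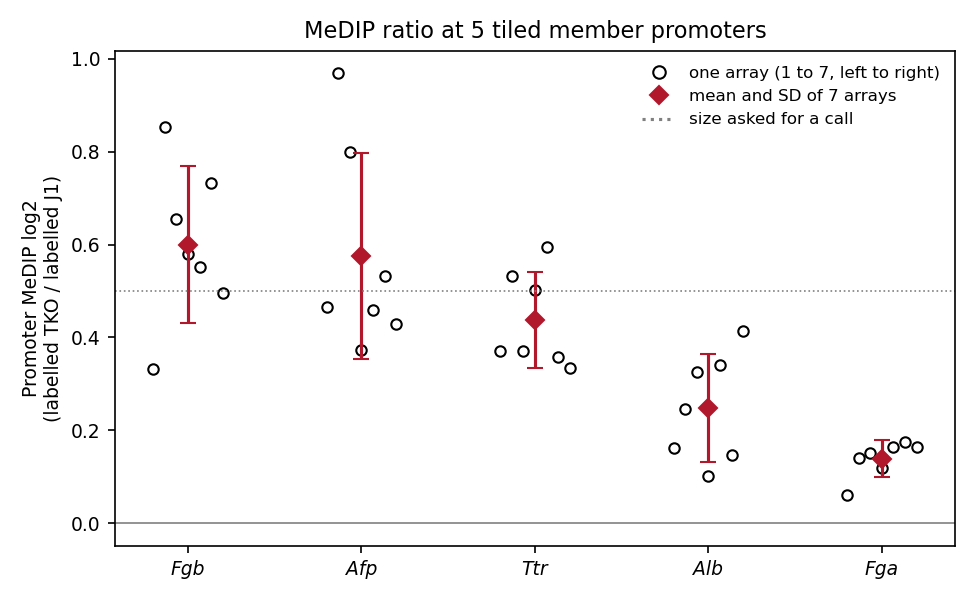
MeDIP log2 ratio (labelled TKO over labelled J1) of the 5 tiled promoters; open points are arrays 1 to 7 from left to right, red diamonds the mean with SD and the dotted line the size of 0.5 asked for a call. Fgb at 0.60 and Afp at 0.57 lie above the line and Fga at 0.14 lies closest to 0, with every point above 0.

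The ratio was uneven along the promoters. Of the 27 probes in the 5 regions 25 had a mean above 0 and 20 passed the adjusted p on the labelled TKO side, where 22.1% of all probes passed; 0 passed on the labelled J1 side, where 19.7% of all probes did. Probes in one sheared stretch of DNA share their fragments and are not replicates. At Fgb the probe 12 bp past the start had the strongest ratio, 1.04 ± 0.24 (SD, n = 7; limma adjusted p = 0.00011), with median signals of 930 in the channel labelled TKO and 473 in the channel labelled J1. The sequence shown above has CGs at 9 and 37 from its RefSeq start. Probe distances count from the start annotated for the array, so which CGs lie near that probe is not known. The probe at -547 was lowest, at 0.16 ± 0.37 (adjusted p = 0.308), and those at -877 and -1087 were at 0.68 and 0.70. The probes at -877 and -1087 were dim, with medians of 160 and 100 in the channel labelled TKO. Both were above background in both channels on 6 of 7 arrays. Under normexp with median centring they were at 0.14 and 0.00 and did not pass. With single values not above background left out, the Fgb mean was 0.59 and still called.

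At Afp all 6 probes passed, with the highest ratio at -432, 1.28 ± 0.53, and the next at 403, 0.84 ± 0.78. These were the dimmest probes of the promoter. The one at -432 had median signals of 149 in the channel labelled TKO and 60.0 in the channel labelled J1, and was above background in both channels on 5 of 7 arrays. The one at 403 had 113 and 61.3 in the same order and was above background in both on 4. The other Afp probes lay between 0.24 and 0.37. With single values not above background in both channels left out, the Afp mean was 0.46 and was not called. At Alb the highest ratio was likewise at a dim probe, 0.73 ± 0.81 at 292, above background in both channels on 2 of 7 arrays.

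At Ttr the probes at -1048 (0.74 ± 0.19) and -211 (0.56 ± 0.19) stood highest, and the brightest one, at -747 with median signals of 4706 in the channel labelled TKO and 4220 in the channel labelled J1, was at 0.11 ± 0.11 (adjusted p = 0.126). At Fga the ratio ran from 0.00 at -790 to 0.10 at -515, 0.12 at -293, 0.19 at -25 and 0.29 at 255. Its probes were among the brightest, with medians in the channel labelled TKO of 923 to 5152. Under normexp with median centring 9 of the 27 probes passed on the labelled TKO side in place of 20: Fgb at 12 (0.78), Ttr at -211 and 69, Afp at -706, Alb at -526 and 12, and Fga at -293, -25 and 255. In that setting 1 probe passed on the labelled J1 side, Alb at -788 with -0.19 (adjusted p = 0.0204).

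**Figure D4:**
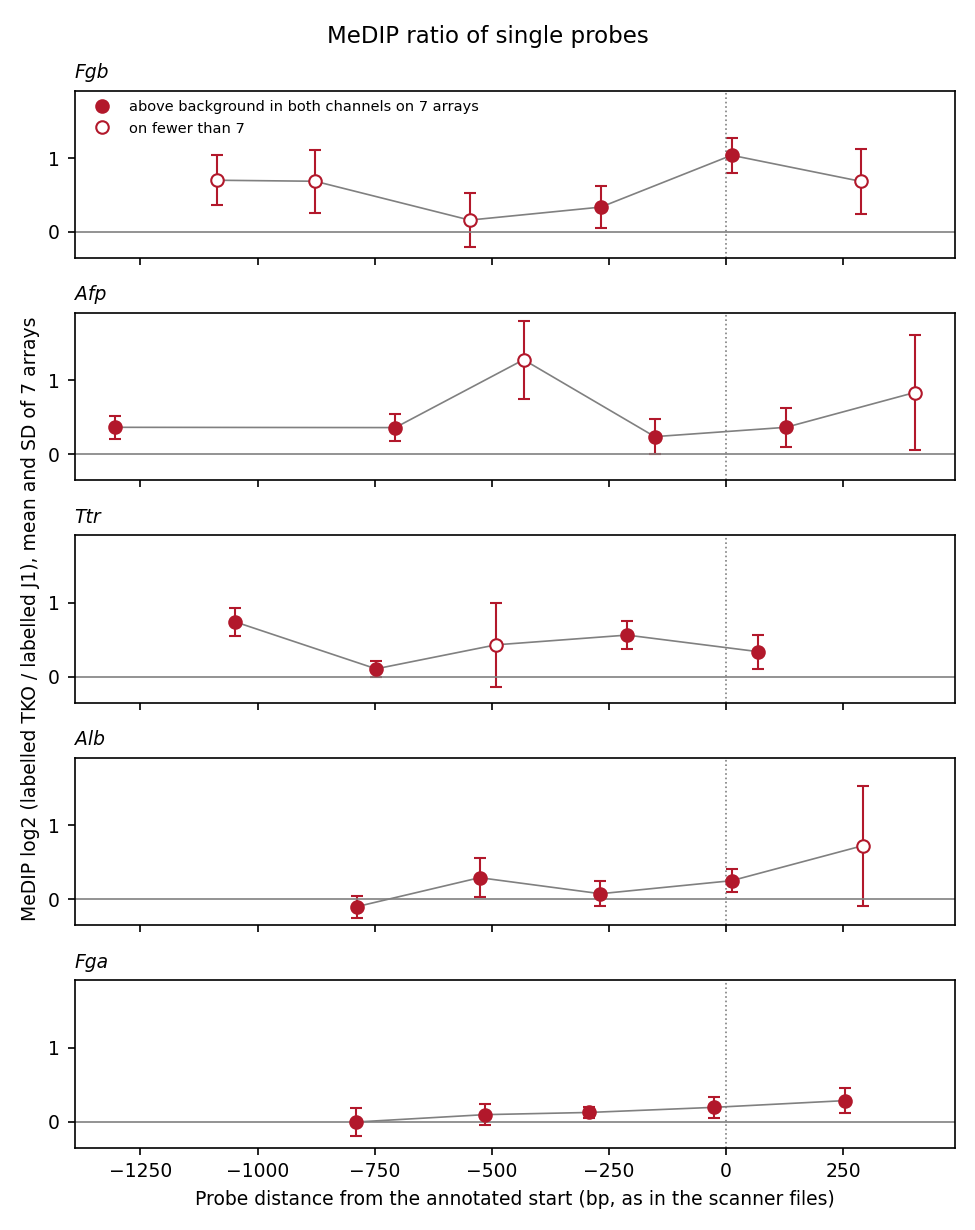
Mean MeDIP log2 ratio with SD over 7 arrays for each probe by its distance from the annotated start (bp); open points were above background in both channels on fewer than 7 arrays and the dotted line marks the start. Fgb peaks at the probe just past its start with 1.04, the highest Afp and Alb values are at open points, and Fga stays at or below 0.29.

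Promoters of the neighbouring genes differed from one another. Afm, beside Afp and Alb, was at 0.54 ± 0.30 (limma adjusted p = 0.000561) and called, although its RNA was not measured in either line, and Gc was at 0.17 ± 0.08. The other end of the Fgb and Plrg1 stretch, whose nearest probe lay -41 bp from the Plrg1 start, was at 0.08 ± 0.11 (adjusted p = 0.114), and Lrat was at -0.06 ± 0.05. No probe is named for the Apoa1 promoter; the adjoining Apoa4 and Apoc3 region was at 0.16 ± 0.12 (adjusted p = 0.00577), Apoa5 at 0.08 ± 0.12, Sik3 at -0.18 ± 0.11 and Pafah1b2 at 0.03 ± 0.09.

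Set side by side, Fgb and Afp, the members with RNA measured in both lines and higher in TKO, had the 2 highest MeDIP ratios with processed signals and dim values kept. That order covers 5 genes on 2 array designs and was not tested. With values not above background left out, Ttr at 0.462 was level with Afp at 0.460. Under normexp Ttr stood above both Fgb and Afp.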

How the data were processed

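RNA and MeDIP DNA from TKO and J1 mouse ES cells were measured on 2-colour Agilent arrays. The members and gene lists were chosen with earlier results of these data known. The deposited intensity values carry Agilent Feature Extraction's background subtraction and dye normalisation, per the file headers, with the LOWESS method for expression and the linear one for MeDIP. The version is 8.5, per the submitters' processing notes, and 7.5.1 in the headers of expression replicates 2 and 3. The authors' deposited tables are in log10 units. For MeDIP they match the scanners' own red over green ratio within rounding, and for expression the table is the mean of 3 arrays with replicate 2 turned, per the series text. It correlated with the fitted ratios at r = 0.928 across genes, which are not independent replicates. Its median is -0.0158, and how it was centred is unknown.

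Expression ratios used normexp (offset 50) and loess. Control and uneven spots were left out, the brightest probe of a gene was kept, and it had to be well above background in TKO or J1 on all arrays kept, at least 2. MeDIP ratios were log2 ratios of processed signals, centred on each array's median without loess. A promoter was the mean over at least 3 probes joined by transcript accession and split at gaps over 2000 bp. The test of each mean ratio against 0 was limma's (version 3.58.1, R 4.3.3), with Benjamini-Hochberg adjustment over all genes, or over all promoters of both parts, with a threshold of 0.05. A promoter call also needed a log2 ratio of at least 0.5 in size. The fits were checked on simulated data. Fold estimates for probes below background in J1 used single-channel values after loess and Aquantile. Probes were named through RefSeq (GRCm38.p6): of 41174 expression probes 22072 were named by accession, 10506 by the file's gene name and 8596 kept the file's name. No source used here names the genome build of the promoter probes, so only distances from annotated starts are used.

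Named were the members, their cluster neighbours, up to 4 genes per list with the largest change among those past the threshold, the 3 genes nearest to each member, the Dnmt genes, Pou5f1, Nanog, Sox2 and the promoters of Asz1, Dppa3 and Sycp3. Slide codes repeat between some arrays, among them expression replicates 2 and 3, and all were kept as replicates. For RNA and part 1 an effect of the slide could not be estimated. Alternatives covered the background correction, normalisation, filters, dye term, probe summaries and left-out arrays. Some items in the lists are not reported here.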

Additional observations from a re-analysis of the deposited data

Results flagged for a closer look

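Of 32 sets of 7 values examined (5 promoters and 27 single probes), 1 held an array far from the others: the Ttr probe at -747 bp, where array 1 was at -0.13 and the mean was 0.11 ± 0.11 (SD, n = 7). Chance flags about 1 in 20 such sets.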

How the results depend on the processing

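RNA of Afp, Fgb and Apoa1 was past the threshold in every alternative that could test it; with probes required above background in both lines only Afp and Fgb could be tested, so 2 members were called. Ttr was not past it with median centring (0.31) or a dye term (0.29), and was 0.22 to 0.36 with 1 array left out. With normexp and median centring 479 genes were called higher and 750 lower, against 2246 and 2263; of the lists, 6 other secreted proteins, 5 parietal endoderm markers, 1 ES cell marker and 0 hepatocyte enzymes were higher, and 0 transcription factors and 0 hepatocyte enzymes lower. Without the filter on dim probes 1 other secreted protein was lower and 2 hepatocyte enzymes higher. With uneven spots kept 1 transcription factor was lower and 1 ES cell marker higher, and with a dye term 1 transcription factor was lower. With 1 array left out, 1 to 2 other secreted proteins and 1 transcription factor were lower, 0 to 1 hepatocyte enzymes higher, and 1506 to 1907 of all genes lower, the lowest count without replicate 1.

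Promoter calls depended on the background correction. With normexp 0 members were called: with median centring Fgb was at 0.19 and Afp at 0.13, with loess at 0.26 and 0.20, and of all promoters 14 were called towards labelled TKO and 1 towards labelled J1 in both, against 381 and 11. Under normexp with median centring 9 member probes passed towards labelled TKO and 1 towards labelled J1. With medians over probes Afp was at 0.43, and where dim values were left out at 0.46, leaving 1 member called each time, and 250 promoters called on the labelled TKO side in the second. With mode centring 5 promoters were called on the labelled J1 side. The causes were not tested. Of 582 values of other named genes 556 kept their direction and side of the threshold and 0 reversed a call. With the mean over a gene's probes the RNA ratio moved by over 1.5 times for Clic6, Clip1, Gata6, Lama1 and Plet1, to between 0.56 for Clip1 and 1.08 for Clic6, all still past the threshold. Slide as a random block could not be fitted for RNA or part 1, which have too few arrays sharing a slide. On part 2, which holds Ttr alone of the members, it left Ttr at 0.44 and uncalled. The calls of Fgb and Afp, on part 1, could not be checked this way. No paired analysis was possible because the replicate numbers shared by parts 1 and 2 join arrays of different promoters, which were not compared; TKO and J1 are already paired within each array's ratio. Dim probes limit Ttr, Apoa1, Fga and Alb in RNA, and Afp, Alb and the upstream Fgb probes in MeDIP.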
